A study of Homo sapiens with 6 samples.

Results

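The AP-2 transcription factors and their cofactors were followed as 9 named genes in T47D, an established line of oestrogen receptor-positive human breast ductal carcinoma cells. They are the AP-2 factors TFAP2A, TFAP2B, TFAP2C and TFAP2E, the coactivators CITED1, CITED2 and CITED4, and the repressors KCTD1 and KCTD15. All 9 were found by symbol among the 17758 genes of the deposited table, and all 9 were among the 13824 genes that passed the filter on low counts. TFAP2B was selected on its lower measured level in the shCUEDC1 libraries, so its difference is a description with no test. The other 8 were chosen by family, as relatives or cofactors, with earlier results of these data known. Their p-values, and those of the listed genes below, carry that limit. TFAP2D, the fifth AP-2 factor, was not analysed here.

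Poly(A) RNA was sequenced from T47D cells that stably carried lentiviral short hairpin RNA, either against CUEDC1 (shCUEDC1, 3 libraries) or without a target (shNC, 3 libraries). Cells of both groups therefore carry a lentiviral insertion and a hairpin, and no overexpression or rescue library is used here. How many hairpins against CUEDC1 were used is not stated, so loss of CUEDC1 and other effects of the hairpin cannot be told apart. The submitters call the libraries biological replicates without saying whether infections were separate, and p-values here reflect only the variation among these 6 libraries. In bulk RNA, fewer cells that express a gene and less of its RNA per cell cannot be told apart.

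AP-2 factors bind GC-rich palindromes in DNA as dimers and direct genes of epithelial and neural crest cells, and in luminal breast cells TFAP2C is known as a regulator of the oestrogen receptor gene ESR1 and of ERBB2. CITED proteins do not bind DNA themselves. They join AP-2 factors to the acetyltransferases CBP and p300, and CITED2 also competes with HIF1A for the same domain of those enzymes. KCTD1 and KCTD15 are BTB-domain proteins that bind AP-2 factors and hold back their activation of transcription.

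Promoter windows are shown for the AP-2 factors with the clearest differences and for the 2 abundant CITED genes, because AP-2 factors are known to bind such windows. Each runs from 250 bases before to 50 bases after a RefSeq transcription start (RefSeq, GRCh38.p14), 5′ to 3′ on the gene's strand. Capitals mark the AP-2 palindrome GCCNNNGGC and the same palindrome with 1 more N in its centre, both searched on both strands, where they read alike, with overlaps allowed. TFAP2B is at chr6:50818621-50818920 on the plus strand, TFAP2A at chr6:10419610-10419909 on the minus strand, CITED2 at chr6:139374599-139374898 on the minus strand and CITED4 at chr1:40862314-40862613 on the minus strand.
TFAP2B: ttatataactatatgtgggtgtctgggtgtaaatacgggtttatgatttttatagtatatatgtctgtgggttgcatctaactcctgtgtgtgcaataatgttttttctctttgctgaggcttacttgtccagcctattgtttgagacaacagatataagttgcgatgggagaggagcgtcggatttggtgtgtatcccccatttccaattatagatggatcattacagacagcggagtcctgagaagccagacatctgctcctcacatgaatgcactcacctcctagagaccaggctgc
TFAP2A: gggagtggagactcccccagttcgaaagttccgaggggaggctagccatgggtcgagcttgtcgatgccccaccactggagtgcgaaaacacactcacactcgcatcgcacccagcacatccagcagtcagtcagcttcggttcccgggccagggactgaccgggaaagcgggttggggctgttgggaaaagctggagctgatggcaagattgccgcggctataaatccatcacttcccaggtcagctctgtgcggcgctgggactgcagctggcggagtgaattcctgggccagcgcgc
CITED2: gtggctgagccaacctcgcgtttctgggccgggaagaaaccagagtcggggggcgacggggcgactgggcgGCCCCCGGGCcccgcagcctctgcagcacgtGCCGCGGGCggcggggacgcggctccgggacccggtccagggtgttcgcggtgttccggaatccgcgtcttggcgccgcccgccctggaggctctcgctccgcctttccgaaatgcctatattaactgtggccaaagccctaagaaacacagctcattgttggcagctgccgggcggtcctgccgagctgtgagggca
CITED4: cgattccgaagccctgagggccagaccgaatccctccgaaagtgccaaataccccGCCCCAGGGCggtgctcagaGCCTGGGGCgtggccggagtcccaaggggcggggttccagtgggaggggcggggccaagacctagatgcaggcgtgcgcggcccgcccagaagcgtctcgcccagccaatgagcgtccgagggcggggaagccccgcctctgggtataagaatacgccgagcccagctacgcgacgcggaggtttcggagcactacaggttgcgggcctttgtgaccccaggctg

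For each gene 1 window is shown, that of its first listed start. The windows shown for TFAP2B and TFAP2A held no match to either palindrome. Those shown for CITED2 and CITED4 each held 1 of each spacing, at -179 and -148 from the start in CITED2 and at -195 and -175 in CITED4. TFAP2A and CITED2 have further RefSeq starts, whose windows are not shown and held no match. Windows were at hand for 7 of the 9 genes, 15 windows in all, and 5 of the 15 held at least 1 palindrome, against 36.7% of all 35116 RefSeq windows. The TFAP2B window had 43% G and C and 5 CpG dinucleotides, where the median of all windows was 58.7% and 14. The first of the 4 KCTD1 windows was lower still in G and C, at 38.7% with 6 CpG, and the other 13 windows had between 59.7% and 69.7%. A match or its absence is a property of these letters and says nothing of binding in T47D.

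Levels between genes were compared in FPKM, which is scaled to gene length. The most abundant transcript was CITED2, with a mean of 95.1 FPKM over the 6 libraries, from 65.1 to 125.75 FPKM. TFAP2C followed with 49.2 FPKM and TFAP2A with 42.9 FPKM. TFAP2C was above TFAP2A in 6 of 6 libraries, but their ranges over all libraries overlapped (46.67 to 51.48 FPKM for TFAP2C and 38.98 to 47.03 FPKM for TFAP2A). CITED4 averaged 24.3 FPKM, KCTD1 15.9 FPKM and KCTD15 10.9 FPKM, and the ranges of these 3 genes did not touch each other. TFAP2B, CITED1 and TFAP2E lay far below, at means of 1.32, 0.987 and 0.63 FPKM. TFAP2B was above CITED1 in 3 of 6 libraries, namely the shNC libraries, and the ranges of CITED1 and TFAP2E overlapped. T47D RNA therefore held mainly TFAP2C and TFAP2A among the AP-2 factors, mainly CITED2 among the coactivators, and both repressors.

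**Figure D1:**
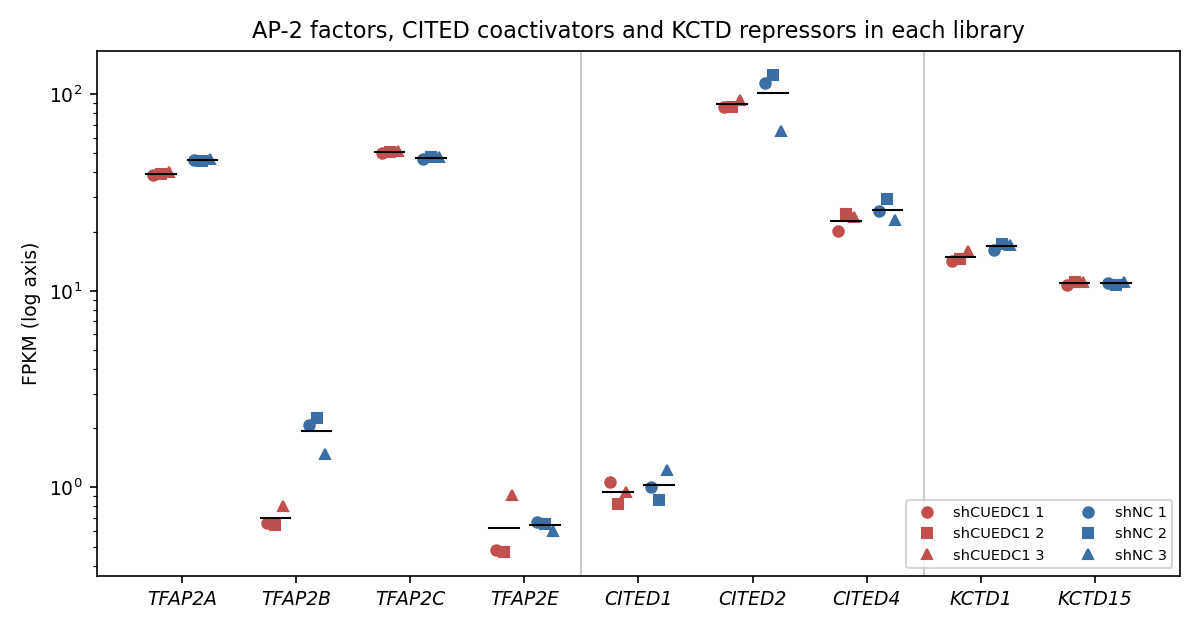
Level of each gene in FPKM on a log axis, with shCUEDC1 libraries in red on the left, shNC libraries in blue on the right, and a black bar at each group's mean (n = 3 each). TFAP2B is separated between the groups, and shNC 3 (blue triangle) lies below the other shNC libraries for CITED2, at 65.1 FPKM against 113.63 and 125.75 FPKM.

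CUEDC1, the gene targeted by the hairpin, was at 31.4, 33.8 and 32.0 CPM in shCUEDC1 1, 2 and 3 and at 110, 109 and 93.3 CPM in shNC 1, 2 and 3. CPM here are counts scaled to library size after TMM, and log2 differences are shCUEDC1 over shNC from edgeR. Library totals were between 18924327 and 19731609 estimated reads. The shNC 3 library stands apart from its group: the SD of log2 differences over 10142 genes was 0.236 and 0.256 between shNC 3 and the other shNC libraries, and 0.107 between shNC 1 and shNC 2. Against the shCUEDC1 libraries this SD was 0.231 to 0.239 for shNC 1 and 2 and 0.261 to 0.272 for shNC 3. The distance of shNC 3 from its own group was therefore about as large as the distance between the groups. Results for the 9 genes are therefore given with and without shNC 3. Of the 13824 genes tested, 9.96% were called changed at an edgeR adjusted p below 0.05. Without shNC 3 the share was 28.1% of 13982 genes. With all libraries DESeq2 called 1462 of the 13824 genes, 771 higher and 691 lower. Shares over all genes at an unadjusted p below 0.05 were not counted, so unadjusted counts given here have no background beside them. All 8 luminal epithelial markers were detected, and their summed level was 9629 to 9769 CPM in shCUEDC1 and 7646 to 9645 CPM in shNC, lowest in shNC 3. KRT8 in shNC 3 was at 61.2% and PGR at 168% of the mean of shNC 1 and 2. Of the 8, edgeR called 0 changed with all libraries (2 higher and 0 lower at an unadjusted p below 0.05) and DESeq2 called 1 higher. Without shNC 3, edgeR called 3 higher and 0 lower. The summed level of 10 markers of leukocytes, endothelium, stroma, melanocytes and basal cells was 23.4 to 26.7 CPM in shCUEDC1 and 17.0 to 26.4 CPM in shNC, which overlap. None of the 10 was at 0 in all 6 libraries, and SOX10 had 2 reads in shCUEDC1 1 and 0 in the other 5 libraries. Of the 5 that were tested, edgeR called 0 (1 higher and 0 lower at an unadjusted p below 0.05) and DESeq2 called 1 higher. LUM, a stromal proteoglycan, was at 6.34 ± 1.13 CPM in shCUEDC1 and 2.59 ± 1.49 CPM in shNC (SD, n = 3 each), a log2 difference of 1.29 (edgeR adjusted p = 0.0744). The other stromal markers did not follow LUM. DCN differed by 0.12 (edgeR adjusted p = 0.868), and PDGFRB, which was not tested, was at 0.085 CPM in shCUEDC1 and 0.152 CPM in shNC. Without shNC 3, LUM was called higher, at 0.90 (edgeR adjusted p = 1.43e-04), and TP63, a basal cell factor, was called lower, at -0.45 (edgeR adjusted p = 2.99e-04). The markers named here were singled out after their values were seen. The part of such cells in the results was not tested.

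TFAP2B, a factor known from neural crest, kidney and limb development, was lower in every shCUEDC1 library. It had 3.72, 3.58 and 4.51 CPM in shCUEDC1 1, 2 and 3, against 11.6, 12.9 and 8.18 CPM in shNC 1, 2 and 3. Every shCUEDC1 library was below every shNC library, and shNC 3 was the lowest of its group. The log2 difference was -1.47 (SE 0.185), a percent difference of -63.9%. Without shNC 3 the log2 difference was -1.64 (SE 0.131). On the log2(FPKM + 0.5) scale it was -1.01, a scale that understates the change of a gene near 1 FPKM. The counts behind these values were 70.43 to 87.26 estimated reads per shCUEDC1 library and 156.18 to 255.85 per shNC library. TFAP2B (Entrez 7021) sits at chr6:50818723-50847613, plus strand (GENCODE v29, GRCh38).

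TFAP2A, which with TFAP2C makes up most of the AP-2 RNA of these cells, fell in shCUEDC1 by a small amount. It was at 124, 124.5 and 128 CPM in shCUEDC1 1, 2 and 3, against 144, 143 and 144 CPM in shNC 1, 2 and 3. The groups did not overlap, and shNC 3 lay with its group. The log2 difference was -0.20 (edgeR adjusted p = 0.0206, 95% interval -0.30 to -0.10), a percent difference of -12.9%. Without shNC 3 it was -0.19 with an edgeR adjusted p of 6.16e-04. The size hardly moved when any library was left out, between -0.21 and -0.19, but the call was lost when any single library other than shNC 3 was left out. The edgeR adjusted p was then 0.108, 0.117 and 0.0679 without shCUEDC1 1, 2 and 3, and 0.0797 and 0.0513 without shNC 1 and 2. TFAP2A (Entrez 7020) sits at chr6:10393186-10419659, minus strand. The antisense genes TFAP2A-AS1 and TFAP2A-AS2 overlap it on the plus strand, and the counting's use of strand is not given, so their reads cannot be told from those of TFAP2A.

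TFAP2C, the AP-2 factor tied to luminal breast identity, was slightly higher in shCUEDC1 but was not called. It was at 143, 144 and 147 CPM in shCUEDC1 1, 2 and 3, against 131, 135 and 133 CPM in shNC 1, 2 and 3, with no overlap. The log2 difference was 0.12 (edgeR adjusted p = 0.131, 95% interval 0.02 to 0.22). Without shNC 3 TFAP2C was called, at 0.12 (edgeR adjusted p = 0.0264), in a fit where 28.1% of genes were called. TFAP2C (Entrez 7022) sits at chr20:56629302-56639283, plus strand.

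TFAP2E, known from olfactory bulb development in mice, was near the lower limit of what these libraries measure. It was at 2.04, 1.38 and 2.80 CPM in shCUEDC1 1, 2 and 3, against 1.92, 2.07 and 1.68 CPM in shNC 1, 2 and 3. The groups overlapped, and the log2 difference was 0.13 (edgeR adjusted p = 0.815, 95% interval -0.47 to 0.74). Without shNC 3 it was 0.06 (edgeR adjusted p = 0.902). In shCUEDC1 1 the estimated reads per unit of FPKM were 83.0 for TFAP2E, against 52.7 to 63.6 in the other 5 libraries. The order of its libraries therefore differs between scales: shCUEDC1 1 was above shNC 1 in CPM, at 2.04 against 1.92, and below it in FPKM, at 0.48 against 0.67.

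The balance between the main AP-2 factors differed between the groups. The ratio of TFAP2A to TFAP2C in FPKM was 0.773, 0.769 and 0.783 in shCUEDC1 1, 2 and 3, against 0.985, 0.95 and 0.985 in shNC 1, 2 and 3. The means were 0.775 ± 0.00719 in shCUEDC1 and 0.973 ± 0.0203 in shNC (SD, n = 3 each), so the groups lay apart by more than the spread within either, shNC 3 included. That the ratio separated the groups follows from the differences of TFAP2A and TFAP2C given above, so it is no further result. TFAP2C was not called with all libraries, and the call of TFAP2A was lost in most fits that left out 1 library. No test was made of this ratio, since its genes were chosen with their values known. TFAP2A made up 43.0 ± 0.0855% of the summed AP-2 level in shCUEDC1 and 48.0 ± 0.676% in shNC, TFAP2C 55.5 ± 0.414% and 49.3 ± 0.414%. TFAP2B made up 0.762 ± 0.0818% in shCUEDC1 and 2.01 ± 0.434% in shNC. The summed level of the 4 factors was 91.7 ± 1.58 FPKM in shCUEDC1 and 96.4 ± 0.817 FPKM in shNC, so the large relative difference of TFAP2B is a small part of all AP-2 RNA.

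**Figure D2:**
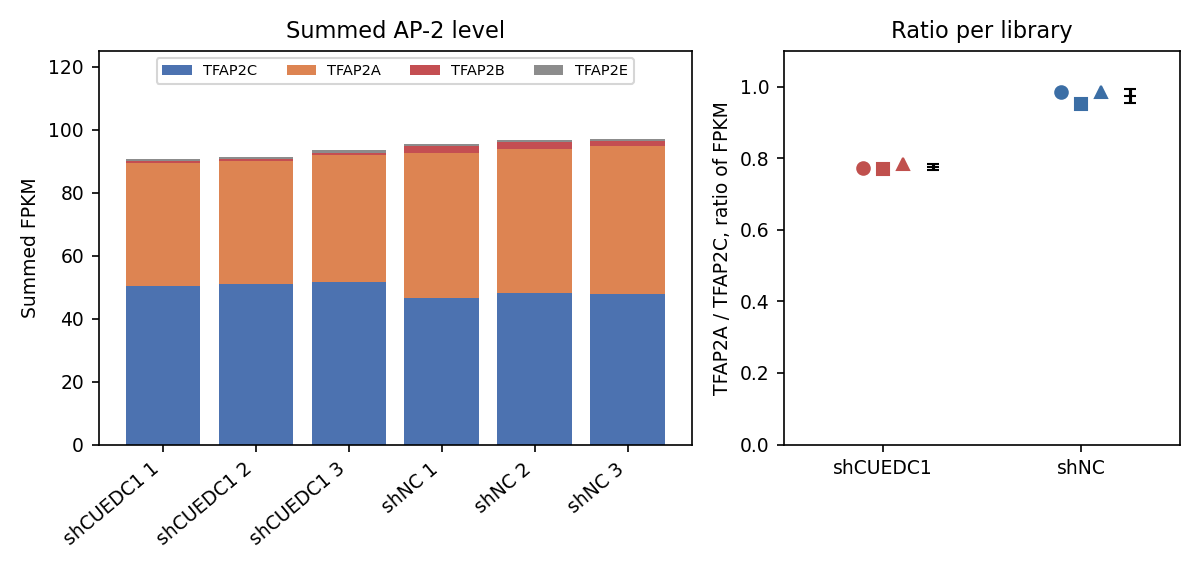
Left, FPKM of the 4 AP-2 factors stacked for each library. Right, ratio of TFAP2A to TFAP2C per library (circle, square and triangle for libraries 1, 2 and 3, red for shCUEDC1 and blue for shNC) with mean and SD in black. The ratio was 0.769 to 0.783 in shCUEDC1 and 0.95 to 0.985 in shNC.

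CITED2, the main CITED coactivator here, gave a result that turned on shNC 3. It was at 202, 202 and 220 CPM in shCUEDC1 1, 2 and 3, against 264, 291 and 151 CPM in shNC 1, 2 and 3. The shCUEDC1 libraries lay between shNC 3 and the other control libraries, with shNC 3 at 54.3% of the mean of shNC 1 and 2. With all libraries the log2 difference was -0.18 (edgeR adjusted p = 0.704, 95% interval -0.75 to 0.39). Without shNC 3 it was -0.41 (edgeR adjusted p = 1.53e-07, 95% interval -0.51 to -0.32), and without shNC 2 it was 0.01 (edgeR adjusted p = 0.992). The values rest on 2874.14 to 5781.36 estimated reads per library. CITED2 (Entrez 10370) sits at chr6:139371807-139374620, minus strand, inside an antisense transcript of unknown share in its reads.

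CITED4, a coactivator of TFAP2 factors that is also expressed in breast epithelium, was at 25.4, 31.1 and 30.1 CPM in shCUEDC1 1, 2 and 3, against 31.8, 36.7 and 28.6 CPM in shNC 1, 2 and 3. The groups overlapped through shNC 3. The log2 difference was -0.17 (edgeR adjusted p = 0.382, 95% interval -0.41 to 0.08), and without shNC 3 it was -0.24 (edgeR adjusted p = 0.0340). It was -0.064 without shNC 2 and -0.080 without shCUEDC1 1 (edgeR adjusted p = 0.756 and 0.761). CITED1, known as a coactivator of the oestrogen receptor as well, had only 13 to 20 estimated reads per library. It was at 0.753 ± 0.0784 CPM in shCUEDC1 and 0.855 ± 0.168 CPM in shNC (SD, n = 3 each). Its log2 difference was -0.18 with a 95% interval of -0.84 to 0.48 (edgeR adjusted p = 0.759). At this depth that interval is wide and takes in changes in either direction. Without shNC 3 the log2 difference of CITED1 was -0.0061 (edgeR adjusted p = 0.993). CITED1 overlaps PIN4 on the opposite strand, and AL133500.1, a protein-coding gene on the same strand, spans nearly all of it, so its reads are uncertain.

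The KCTD repressors did not pass the test. KCTD1 was at 30.4, 31.4 and 34.3 CPM in shCUEDC1 1, 2 and 3, against 33.1, 35.4 and 35.4 CPM in shNC 1, 2 and 3, and the groups overlapped in CPM through shCUEDC1 3. In FPKM they came close without overlap, at 14.18 to 16.02 in shCUEDC1 and 16.05 to 17.20 in shNC. Its log2 difference was -0.11 (edgeR adjusted p = 0.361, 95% interval -0.27 to 0.04). KCTD15 was at 42.7, 44.2 and 44.4 CPM in shCUEDC1, against 43.1, 41.6 and 43.1 CPM in shNC. KCTD15 differed by 0.04 (edgeR adjusted p = 0.728, 95% interval -0.09 to 0.17), an interval that leaves out a rise or fall of more than 0.17 on the log2 scale. Without shNC 3 the log2 differences were -0.09 for KCTD1 and 0.05 for KCTD15, with edgeR adjusted p of 0.331 and 0.566.

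Across the 8 genes other than TFAP2B, 0 were called higher and 1 lower in shCUEDC1 by edgeR, where 9.96% of all tested genes were called, 5.19% higher and 4.77% lower. DESeq2, limma-voom and limma-trend on FPKM also called 0 higher and 1 lower, and at an unadjusted p below 0.05 edgeR had 1 higher and 1 lower. Groups did not overlap in CPM for 1 higher gene and 1 lower gene of the 8, against 31.3% of all tested genes, 15.7% higher and 15.6% lower. Without shNC 3, 1 was higher and 3 were lower, beside a share of 28.1% over all genes. Nothing is read from these counts, since the genes were gathered around one chosen for this contrast.

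**Figure D3:**
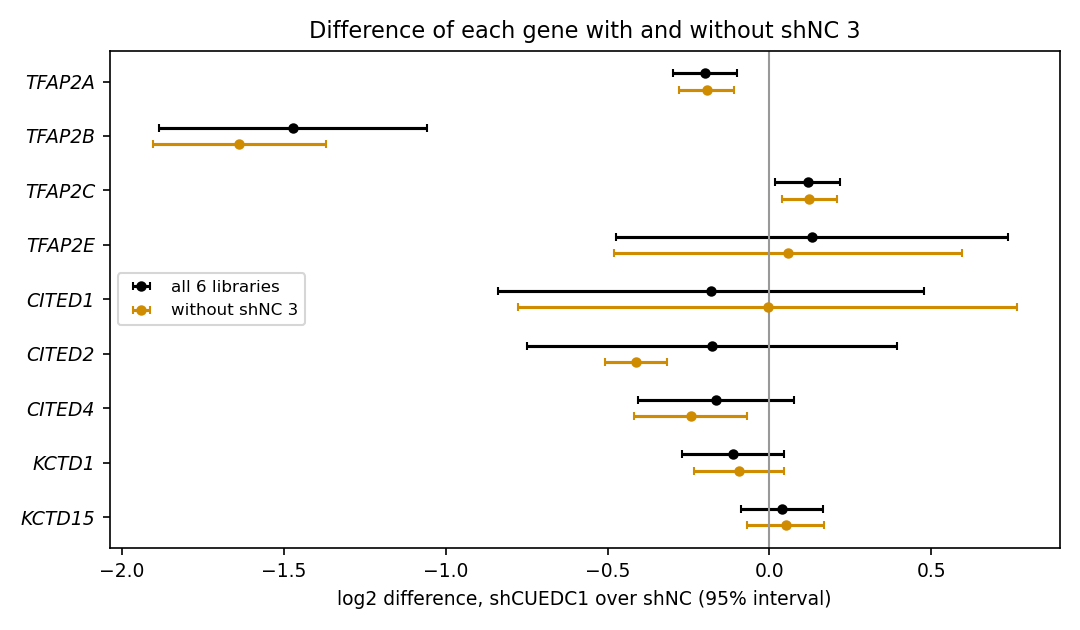
Log2 difference of each gene, shCUEDC1 over shNC, with its 95% interval from edgeR, with all 6 libraries (black) and without shNC 3 (orange). TFAP2A and TFAP2C barely moved when shNC 3 was left out, while CITED2 went with a much narrower interval to -0.41.

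Proteins that bind AP-2 or CITED proteins, or the CBP and p300 domain that CITED proteins share with other factors, were listed as 29 genes, all of them tested. Of these, 0 rose and 3 fell (edgeR), with a median log2 difference of -0.05, against -0.004 over all genes tested. Over all genes edgeR called 9.96%, 5.19% higher and 4.77% lower, so the share of partners called in either direction was near that of all genes. By direction it was not, since all 3 calls were falls. At an unadjusted p below 0.05, 2 were higher and 8 lower. DESeq2 called 1 higher and 4 lower, beside 771 higher and 691 lower of the 13824 genes. Limma-voom called 0 higher and 3 lower, beside 730 higher and 630 lower. Without shNC 3, 4 were called higher and 9 lower by edgeR, beside 28.1% of all genes (14.3% higher and 13.8% lower). In that fit the share of partners called was above that of all genes, and no test was made of it. The lists overlap: ESR1 and FOXA1 stand among these partners, the reported targets below and the luminal markers above. Both were called higher by edgeR without shNC 3, so they enter the counts of all these lists, which are not separate observations. KRT8 is both a reported target and a luminal marker. WT1, a zinc finger factor that works with CITED2 in the adrenal and gonad primordium of mice, fell to 8.0, 7.77 and 8.03 CPM in shCUEDC1 1, 2 and 3, against 13.7, 13.9 and 12.7 CPM in shNC 1, 2 and 3. Its log2 change was -0.76 (edgeR adjusted p = 0.00152, 95% interval -0.97 to -0.55), and it kept its call whichever library was left out.

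Genes reported in one cell type or another to be induced or repressed by an AP-2 factor were listed as 29 genes, of which 23 were tested. Of the 23, 2 rose, 3 fell and 18 were not called (edgeR), with a median log2 difference of 0.03 against -0.004 over all genes, of which 9.96% were called (5.19% higher and 4.77% lower). DESeq2 called 4 higher and 6 lower, beside 771 higher and 691 lower of the 13824 genes. EdgeR without shNC 3 called 8 higher and 6 lower, beside 28.1% of all genes. ERBB2, the receptor tyrosine kinase HER2 and a classical AP-2 target, rose to 244, 258 and 249 CPM in shCUEDC1 1, 2 and 3, against 191, 204 and 173 CPM in shNC 1, 2 and 3. Its log2 change was 0.41 (edgeR adjusted p = 0.00405, 95% interval 0.26 to 0.55), and ERBB3, its dimerisation partner, rose by 0.31 (edgeR adjusted p = 0.00450). MCAM, an adhesion molecule that TFAP2A represses in melanoma cells, fell to 11, 13 and 12.8 CPM in shCUEDC1, against 25.5, 26.9 and 18.3 CPM in shNC (log2 change -0.94, edgeR adjusted p = 0.00421). For MCAM shNC 3 was the control library nearest to the knockdown, and for ERBB2 it was the farthest. FREM2, an extracellular matrix protein, fell by 1.0 at a level of 0.0833 FPKM in shCUEDC1 and 0.173 FPKM in shNC (edgeR adjusted p = 0.0159). MT2A, a metallothionein with near-identical family members and therefore uncertain, fell by 0.33 (edgeR adjusted p = 0.0274). ERBB2, ERBB3 and MCAM kept their calls whichever library was left out. FREM2 kept its call only without shNC 3, and its edgeR adjusted p was 0.0609, 0.0886 and 0.0696 without shCUEDC1 1, 2 and 3 and 0.0619 and 0.0530 without shNC 1 and 2. MT2A lost its call without shCUEDC1 1 or 2 (0.0902 and 0.0991) and without shNC 1 or 2 (0.0690 and 0.0631). ESR1 differed by 0.19 and was not called with all libraries (edgeR adjusted p = 0.165). Without shNC 3, ESR1 was called higher, at 0.30 (edgeR adjusted p = 1.92e-06). ESR1 was named after its value was seen.

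The KCTD family outside KCTD1 and KCTD15 was listed beside them as genes of the same family. Of 14 tested, 2 rose and 1 fell (edgeR), with a median log2 difference of -0.02, beside 9.96% of all genes called. DESeq2 called 2 higher and 0 lower, beside 771 higher and 691 lower of the 13824 genes. EdgeR without shNC 3 called 3 higher and 4 lower, beside 28.1% of all genes. KCTD3, the most abundant of those called, rose to 404, 378 and 383 CPM in shCUEDC1 1, 2 and 3, against 311, 317 and 288 CPM in shNC 1, 2 and 3 (log2 change 0.35, edgeR adjusted p = 0.00327). It kept its call whichever library was left out. KCTD21, a cullin adaptor, rose by 0.36 (edgeR adjusted p = 0.0232) and KCTD7 fell by 0.31 (edgeR adjusted p = 0.0431). KCTD21 lost its call without shCUEDC1 1, 2 or 3 or shNC 1 (0.103, 0.113, 0.0685 and 0.0958). KCTD7 lost its call without shCUEDC1 1, 2 or 3 (0.107, 0.151 and 0.163) or shNC 1 or 2 (0.147 and 0.0682).

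**Figure D4:**
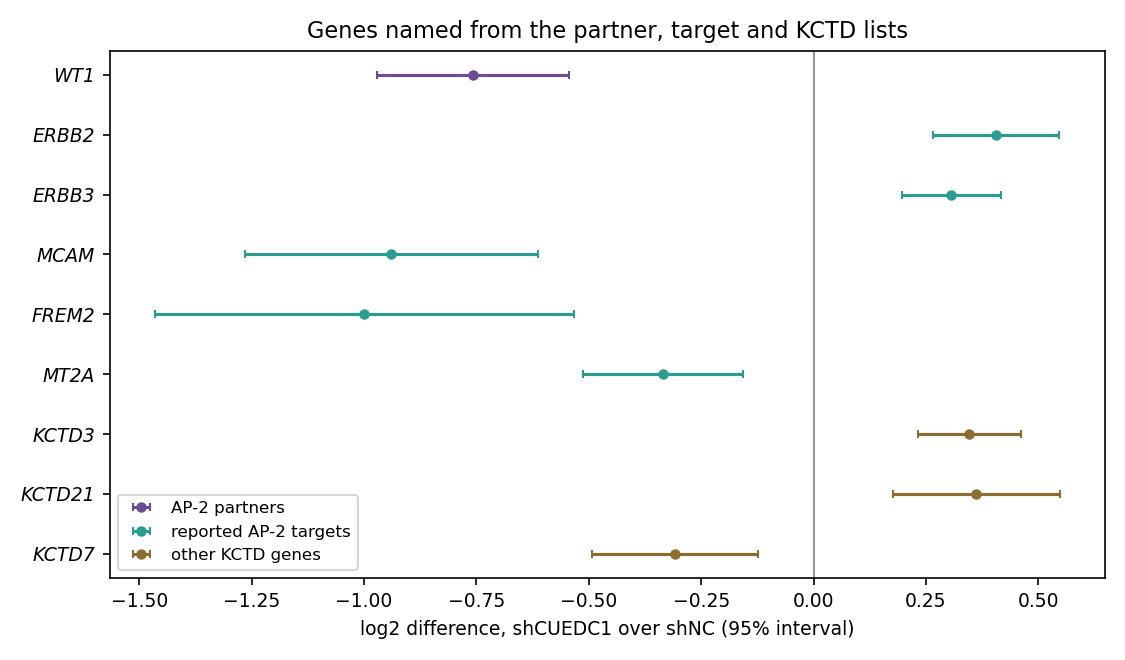
Log2 difference with 95% interval from edgeR for the genes named from the partner, target and KCTD lists, shCUEDC1 over shNC with all 6 libraries. ERBB2, ERBB3, KCTD3 and KCTD21 lie above 0, and the others below, down to -1.0 for FREM2.

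The genes whose log2 CPM over the 6 libraries was most like that of TFAP2B were TP53I3, SUCLA2, NARF, MKX and FAM43A, out of 11866 ranked genes with a mean of at least 1 FPKM. Their Pearson r with TFAP2B was 0.997, 0.997, 0.996, 0.996 and 0.994. All 5 were lower in shCUEDC1 than in shNC, with shNC 3 the lowest control library. Both traits follow from the ranking, since TFAP2B has them too. NARF was not called, at a log2 difference of -0.13 (edgeR adjusted p = 0.201). MKX, a homeobox factor of tendon, was at 9.13, 9.16 and 9.59 CPM in shCUEDC1 1, 2 and 3, against 14.2, 15.6 and 12.4 CPM in shNC 1, 2 and 3. The r values describe 6 libraries that share the group difference and the offset of shNC 3, and 223 genes had an r of at least 0.95.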

How the data were processed

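RNA of 6 T47D libraries was poly(A)-enriched, fragmented and reverse-transcribed from random hexamers, per the labels' protocols. The submitters' processing notes name GRCh38.p13. Aligner, counter and strand setting were not given in the sources used here. Per gene, the authors deposited estimated counts, not normalised and mostly fractional, with FPKM (per length and library size) and TPM (scaled to a common sum per library), per the file headers. Here the estimated counts were rounded, filtered with filterByExpr (minimum count 10), scaled by TMM and compared with edgeR 4.0.16 (quasi-likelihood, robust) under R 4.3.3. P-values were adjusted by Benjamini-Hochberg over all 13824 tested genes, and 0.05 was the threshold. DESeq2 1.42.0 and limma 3.58.1 were alternatives. The edgeR script was tested on simulated data. The genes and lists were chosen with earlier results of these data known. Named genes were the 9 genes of the set, CUEDC1, up to 5 called genes per list and direction by smallest p, and the 5 genes most like TFAP2B. Some genes that met this rule are not reported here. Genes singled out beyond that are marked in the text. Promoters came from RefSeq (GRCh38.p14) and gene positions from GENCODE v29.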

Additional observations from a re-analysis of the deposited data

How the results depend on the processing

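The count of changed genes was 1377 and stayed within 1.5 times of that under RLE size factors, other filters, DESeq2, limma-voom and limma-trend on FPKM. Leaving out 1 library gave 468 to 3925 genes, 0 to 4 of the 8 genes other than TFAP2B (1 with all libraries), and 5 to 32 of the listed partners, targets and KCTD genes (11 with all libraries). The highest value of each came without shNC 3. Over 13 alternatives TFAP2B kept its direction. TFAP2B was picked for its fall in these libraries and its groups did not overlap, so its direction was fixed beforehand and adds no support. The direction turned for CITED2 without shNC 2 (0.0055) and for TFAP2E without shCUEDC1 3 (-0.14) and on the log2(FPKM + 0.5) scale (-0.048), none of them called. Leaving out 1 library, CITED2 ranged from -0.41 to 0.0055, TFAP2E from -0.14 to 0.36 and CITED4 from -0.24 to -0.064. With the replicate number as a block, 0 of the 8 genes were called by edgeR (adjusted p of TFAP2A 0.0507), and 1117 genes in all. Deviations of libraries with the same number were correlated at 0.00911, 0.0707 and 0.0267, and not every library correlated best with its own number. These values show no clear pairing by number, but so few libraries cannot settle whether there was any. The cause of these shifts was not tested. CITED1 had 13 to 20 estimated reads per library and TFAP2E 27.11 to 54.13. In CPM the SD of TFAP2E was 0.709 in shCUEDC1 and 0.196 in shNC, and that of CITED2 was 10.2 in shCUEDC1 and 74.5 in shNC.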
